A study of Mus musculus with 121 samples.

Results

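Within the mouse bone marrow population that the labels call CD11b+ GMP-P, 11 cells carrying the authors' state name Myelo-2 were set against 13 cells carrying the state name Gran-2. These 24 cells are part of 46 CD11b+ GMP-P cells and of 121 cells in all. They were chosen by the state name that the authors deposited for each cell and by a single run name, which all 46 CD11b+ GMP-P cells share. The mice were C57BL/6 with Gfi1 mutated at R412X in all 24 cells, a genotype that the labels write as Gfi1-R412X/- and, in the titles, as HTZ. The allele is thus shared by both states, and no value below measures its effect; cells with unmutated Gfi1 were not analysed here. No age, animal number or treatment is given in the labels. Marrow of crushed hindlimbs was enriched on CD117 beads and sorted by flow cytometry, and single cells were captured on the Fluidigm C1 microfluidic system. CD117 is Kit, the stem cell factor receptor, and CD11b is integrin alpha M, the product of Itgam.

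Neutrophils fill their granules in waves during maturation in the marrow. Primary (azurophil) granules, with myeloperoxidase and the serine proteases elastase, proteinase 3 and cathepsin G, are made at the promyelocyte stage; secondary (specific) granules, with lactoferrin, the cathelicidin Camp and Ngp, follow at the myelocyte stage; gelatinase granules and surface receptors of the mature cell come last. The transcription factors Gfi1 and C/EBP epsilon are required for the later steps in the mouse, and proliferation ends as the cell passes the myelocyte stage.

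Expression was read as log2(TPM + 1), where TPM is a transcript's share of all transcripts, corrected for its length, so that a level of 10 corresponds to 1023 TPM. Detection in a cell means 1 TPM or more. Differences are the mean level in Myelo-2 minus the mean level in Gran-2, a scale on which differences of low genes come out too small. No animal is named, so each state is 1 sample. The sources used here do not say how the state names were assigned, and the names belong to these same cells, so every gene counts as used in the naming. The values below therefore describe the 24 cells, with no p-value, no standard error and no replicate check. An SD over cells gives the spread of single cells, and counts of genes are by size only. Intervals after a share are exact 95% binomial (Clopper-Pearson) and cover counting error only. A share of 0 is read against a floor of 3 cells, 27.3% of Myelo-2 or 23.1% of Gran-2 cells, which is slightly below the exact upper bounds of 28.5% and 24.7%. Sequencing depth is unknown, since TPM keeps no record of it.

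The states differed in how many genes they showed. Myelo-2 cells had 1509 detected genes at the lowest, 2261 at the median and 3364 at the highest, against 2446, 3760 and 4509 in Gran-2 cells. Transcripts were concentrated in fewer genes in Myelo-2: the 20 most abundant genes of each cell took a median of 56.7% of its TPM (35.2% to 63.6%), against 29.2% in Gran-2 (15.6% to 34.8%), without overlap. A total of 5633 genes passed a filter of detection in 25% or more of either state's cells. Of these, 111 (1.97%) were at least 2 log2 units higher in Myelo-2 and 1422 (25.2%) at least 2 lower. The median difference over all these genes was -1.15, with quartiles of -2.01 and -0.28. Every list below is to be read against that shift, and its counts against the shares of 1.97% and 25.2%. The part of gene number in each result was not tested, but 4 Myelo-2 and 5 Gran-2 cells with 2400 to 3400 detected genes gave a median difference over all genes of 0.22, with 962 genes at least 2 higher and 1074 at least 2 lower; their values stand beside those of all 24 cells for the lists and for part of the genes. No cells were identical: over 276 pairs of the 24 cells, Pearson's r across genes ran from 0.30 to 0.68.

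Of all lists, secondary granule genes had the highest median difference. Of 17 listed genes 15 were in the table and 14 were detected often enough to be kept; of these, 9 were at least 2 log2 units higher in Myelo-2, none was 2 lower, and the median difference was 3.23, and 4.33 in the cells of matched gene number. Ltf, which encodes the iron-binding protein lactoferrin, had levels of 5.36, 13.64 and 14.82 in Myelo-2 cells (lowest, median, highest), against 1.53, 2.73 and 9.82 in Gran-2 cells. In all, 10 of 11 Myelo-2 cells lay above every Gran-2 cell and 1 lay among them, so the groups overlapped through a single cell. The mean was 12.97 ± 2.65 in Myelo-2 (SD, n = 11 cells) and 3.88 ± 2.83 in Gran-2 (SD, n = 13 cells), a difference of 9.09, the largest among genes found in 75% or more of the higher state's cells.

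Ngp, the neutrophilic granule protein of the cystatin family, had levels of 13.66, 16.52 and 17.23 in Myelo-2 cells, against 5.78, 10.80 and 15.05 in Gran-2 cells, a difference of 5.75. Its range was narrow in Myelo-2 and wide in Gran-2, with overlap. Camp, which encodes the antimicrobial peptide precursor cathelicidin, had levels of 14.60, 15.53 and 15.82 in Myelo-2 cells, against 4.26, 11.63 and 14.24 in Gran-2 cells, a difference of 4.09. Lcn2, which encodes the siderophore-binding lipocalin, had levels of 12.99, 13.74 and 14.59 in Myelo-2 cells, against 9.76, 12.18 and 12.97 in Gran-2 cells, a difference of 1.81. Every Myelo-2 cell was above every Gran-2 cell for Camp and for Lcn2, which are the only 2 of the 5633 genes (0.0355%) with that order.

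The other secondary granule genes followed with more dropouts. Cd177, a surface glycoprotein stored in these granules, had levels of 9.99, 10.65 and 11.92 in Myelo-2 cells, against 0, 5.65 and 11.55 in Gran-2 cells, a difference of 4.95. Mmp8, the neutrophil collagenase, had levels of 9.70, 10.90 and 12.54 in Myelo-2 cells, against 0.25, 8.57 and 11.76 in Gran-2 cells, a difference of 3.51. For both, the lowest Myelo-2 cell lay above the Gran-2 median, and the states overlapped. Chil1, a chitinase-like protein, was detected in 8 of 11 Myelo-2 cells (72.7%, 39% to 94.0%), against 3 of 13 Gran-2 cells (23.1%, 5.0% to 53.8%), a difference of 5.62. Itgb2l, an integrin beta 2-like gene, differed by 3.31, Ceacam10 by 2.85 (5.69 in the cells of matched gene number) and Orm1, the acute phase protein orosomucoid, by 3.15. Orm1 was detected in no Gran-2 cell, and its difference was -0.17 in the matched cells.

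Not every member was higher in Myelo-2. Hp, which encodes haptoglobin, had levels of 6.34, 10.78 and 12.61 in Myelo-2 cells, against 10.30, 11.32 and 13.08 in Gran-2 cells, a difference of -1.07. The secretory protease inhibitor Slpi differed by -0.14, which was 4.12 in the cells of matched gene number, Olfm4, which did not pass the filter, by 0.13 with 1 cell detected in each state, and the peptidoglycan-binding Pglyrp1 by 0.89. Chil3, another chitinase-like gene with close paralogs among which reads may be split, differed by 1.35. In TPM, the list took 18.7% of all transcripts at the median in Myelo-2 cells (8.49% to 28%), against 2.99% in Gran-2 cells (0.91% to 6.77%), and no Gran-2 cell reached the lowest Myelo-2 cell.

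**Figure D1:**
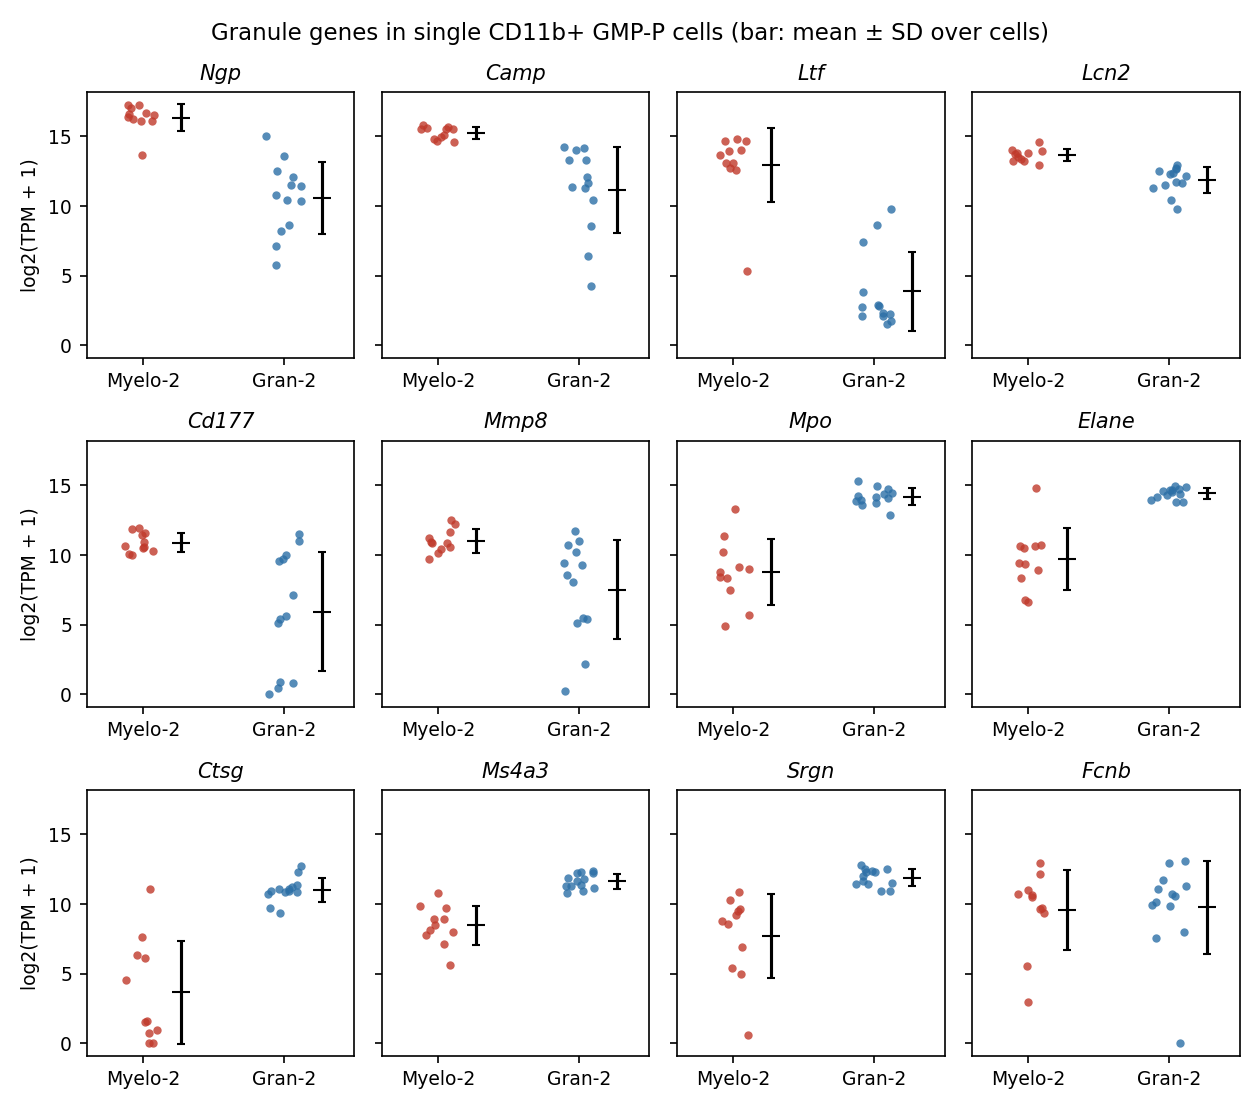
Levels in log2(TPM + 1) of 12 granule genes in each of 11 Myelo-2 cells (left, red points) and 13 Gran-2 cells (right, blue points), with bars for the mean ± SD over cells. Camp and Lcn2 separate the cells completely in one direction and Ms4a3 and Srgn in the other, whereas Fcnb overlaps broadly, from 2.98 to 12.97 in Myelo-2 and from 0 to 13.07 in Gran-2.

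Low levels of these genes in Gran-2 were read against the Mono cells, as a level outside the neutrophil states. The same run held 6 such cells, by the authors' names, in which Ltf reached 5.70, Ngp 9.92, Camp 8.70 and Lcn2 10.003. Above that highest level were 10 of 11 Myelo-2 and 3 of 13 Gran-2 cells for Ltf, 11 of 11 and 9 of 13 for Ngp, 11 of 11 and 10 of 13 for Camp, and 11 of 11 and 12 of 13 for Lcn2. Gran-2 thus held Lcn2, Camp and Ngp above that level in most cells, and Ltf in few. In the 32 Mono cells of the other large run, Ngp and Ltf were at 0 in all, while Lcn2 was detected in 18. Mono cells had a median of 4434 detected genes in the same run, more than the median of either state, and the source of low levels in them was not tested.

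The sequences around the start of 5 granule genes are given to show leading genes of either granule class, from RefSeq on build GRCm38.p6, 250 bases before to 50 after the annotated start. The authors' build is mm9, and the windows serve for their letters only. Capitals mark the C/EBP motif TTGCNNAA, read on both strands; each N stands for any base. Ltf lies at chr9:111019042-111019341 (+ strand), Ngp at chr9:110419558-110419857 (+ strand), Camp at chr9:109849407-109849706 (- strand), Mpo at chr11:87793534-87793833 (+ strand) and Elane at chr10:79886062-79886361 (+ strand).
Ltf: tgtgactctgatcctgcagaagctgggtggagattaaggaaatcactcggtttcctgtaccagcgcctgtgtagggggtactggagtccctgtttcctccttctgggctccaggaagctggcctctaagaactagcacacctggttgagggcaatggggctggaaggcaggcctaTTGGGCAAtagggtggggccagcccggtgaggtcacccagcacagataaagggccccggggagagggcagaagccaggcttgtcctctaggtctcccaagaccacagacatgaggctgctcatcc
Ngp: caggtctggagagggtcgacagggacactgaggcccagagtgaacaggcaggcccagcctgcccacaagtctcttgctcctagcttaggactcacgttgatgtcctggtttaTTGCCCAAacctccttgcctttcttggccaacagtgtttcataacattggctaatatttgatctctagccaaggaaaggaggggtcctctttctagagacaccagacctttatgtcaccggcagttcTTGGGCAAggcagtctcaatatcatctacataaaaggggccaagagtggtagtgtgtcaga
Camp: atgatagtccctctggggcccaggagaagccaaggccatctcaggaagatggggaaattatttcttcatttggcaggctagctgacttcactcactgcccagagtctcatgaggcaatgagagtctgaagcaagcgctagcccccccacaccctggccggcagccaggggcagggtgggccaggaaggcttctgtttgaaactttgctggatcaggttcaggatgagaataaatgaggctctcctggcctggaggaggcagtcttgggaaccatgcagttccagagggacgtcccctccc
Mpo: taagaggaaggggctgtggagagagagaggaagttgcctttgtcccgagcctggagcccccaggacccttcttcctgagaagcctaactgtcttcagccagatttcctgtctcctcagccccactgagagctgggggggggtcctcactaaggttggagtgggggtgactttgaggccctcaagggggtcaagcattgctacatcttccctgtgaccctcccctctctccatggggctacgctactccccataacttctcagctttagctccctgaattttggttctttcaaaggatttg
Elane: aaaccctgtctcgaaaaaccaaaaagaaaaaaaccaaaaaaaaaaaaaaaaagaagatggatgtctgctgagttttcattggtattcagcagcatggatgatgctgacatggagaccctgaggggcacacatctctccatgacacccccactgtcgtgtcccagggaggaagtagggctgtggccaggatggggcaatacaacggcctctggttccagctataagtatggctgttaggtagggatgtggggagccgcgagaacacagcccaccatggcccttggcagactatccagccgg
The Ltf window holds 1 match, TTGGGCAA, beginning 75 bases before the start, and the Ngp window holds 2, TTGCCCAA at 138 and TTGGGCAA at 11 bases before it. No match is in the windows of Camp, Mpo or Elane. Of the secondary granule list, 5 of 13 windows (38.5%) hold the motif, and of the primary granule list 2 of 8 (25%). Over whole classes the share was 17.6% (16 of 91) of genes at least 2 higher in Myelo-2, 9.12% (101 of 1108) of those at least 2 lower and 10.8% (2906 of 27025) of all genes with a window. For the PU.1 core GAGGAA, on both strands, the shares were 45.1% (41 of 91), 28.3% (314 of 1108) and 28.3% (7652 of 27025). It was in 8 of 13 windows (61.5%) of the secondary and 6 of 8 (75%) of the primary granule list. Among the 4311 kept genes with a window, 8.98% held the C/EBP motif and 27.6% the PU.1 core. A match is a description of the letters and not a site.

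Genes of the gelatinase granule and late neutrophil list were mostly higher in Myelo-2 as well: 10 of 17 kept members by at least 2, 1 lower by at least 2, with a median of 2.27, and 2.16 in the matched cells. Ifitm6, an interferon-induced transmembrane gene, had levels of 5.97, 10.41 and 12.28 in Myelo-2 cells, against 0, 0 and 10.14 in Gran-2 cells, a difference of 7.67. It was detected in all Myelo-2 cells and in 5 of 13 Gran-2 cells. Retnlg, a resistin-like gene of mature neutrophils, was detected in 8 of 11 Myelo-2 and 4 of 13 Gran-2 cells and differed by 4.97. Fpr2, a receptor for formylated peptides, was detected in 7 of 11 and 3 of 13 cells and differed by 4.81. The inhibitory receptor Pirb differed by 5.10, though reads may be shared with the similar Pira genes. Ly6g, the antigen that marks mature neutrophils, was found in 3 of 11 Myelo-2 cells (27.3%, 6.0% to 61%), against 0 of 13 Gran-2 cells, and the gelatinase Mmp9 in 6 of 11 and 1 of 13. The member that was at least 2 lower was Csf3r, the G-CSF receptor, with levels of 0, 4.57 and 9.22 in Myelo-2 cells, against 0.26, 7.74 and 9.28 in Gran-2 cells, a difference of -2.04.

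Among single genes chosen by size alone, further myeloid genes were higher in Myelo-2. Plbd1, a phospholipase B-like gene of granulocytes, had levels of 0, 8.33 and 9.66 in Myelo-2 cells, against 0, 0 and 1.16 in Gran-2 cells, a difference of 6.32. C5ar1, the receptor for the complement fragment C5a, had levels of 0, 7.61 and 10.28 in Myelo-2 cells, against 0, 0 and 7.04 in Gran-2 cells, a difference of 5.45. Each was detected in 9 of 11 Myelo-2 cells (81.8%, 48.2% to 97.7%), against 2 of 13 Gran-2 cells (15.4%, 1.9% to 45.4%). Lyz2, the myeloid lysozyme, had levels of 11.70, 13.62 and 15.08 in Myelo-2 cells, against 0, 9.98 and 12.43 in Gran-2 cells, a difference of 5.18. Its near-identical neighbour Lyz1, with which it may share reads, differed by 4.66. Further genes were Ifitm3 at 5.54, the inhibitory receptor Lilrb4 at 4.45, the leukotriene-forming lipoxygenase Alox5 at 4.25 and the tetraspanin Cd9 at 3.55.

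Primary granule genes went the other way. Of 10 kept members, 8 were at least 2 lower in Myelo-2 and none higher, with a median of -4.25, and -3.04 in the matched cells. Mpo, which encodes myeloperoxidase, had levels of 4.94, 8.80 and 13.34 in Myelo-2 cells, against 12.91, 14.18 and 15.30 in Gran-2 cells. The mean was 8.80 ± 2.36 in Myelo-2 (SD, n = 11 cells) and 14.19 ± 0.62 in Gran-2 (SD, n = 13 cells), a difference of -5.39, and only 1 Myelo-2 cell came into the Gran-2 range. Elane, neutrophil elastase, had levels of 6.63, 9.44 and 14.84 in Myelo-2 cells, against 13.81, 14.56 and 14.98 in Gran-2 cells, a difference of -4.71. Prtn3, proteinase 3, had levels of 1.28, 8.39 and 11.96 in Myelo-2 cells, against 10.57, 11.69 and 12.99 in Gran-2 cells, a difference of -4.31. Message of all 3 was still detected in every Myelo-2 cell.

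Ctsg, cathepsin G, showed the largest difference of the list. Its levels were 0, 1.58 and 11.09 in Myelo-2 cells, against 9.39, 10.94 and 12.72 in Gran-2 cells, a difference of -7.35. It was detected in 7 of 11 Myelo-2 cells (63.6%, 30.8% to 89.1%) and in all 13 Gran-2 cells. Prss57, a further granule serine protease, differed by -4.46 and Ctsc, the protease that activates the granule serine proteases, by -3.21. Srgn, the proteoglycan serglycin that packs granule proteases, had levels of 0.58, 8.82 and 10.87 in Myelo-2 cells, against 10.94, 12.03 and 12.80 in Gran-2 cells, a difference of -4.19. Ms4a3, a membrane protein of granulocyte and monocyte progenitors, had levels of 5.64, 8.50 and 10.77 in Myelo-2 cells, against 10.78, 11.66 and 12.35 in Gran-2 cells, a difference of -3.15. Plac8, a cysteine-rich protein of myeloid cells, had levels of 2.88, 9.60 and 11.04 in Myelo-2 cells, against 11.23, 11.69 and 13.07 in Gran-2 cells, a difference of -3.24. For Srgn, Ms4a3 and Plac8 every Myelo-2 cell was below every Gran-2 cell, which held for 3 of 5633 genes (0.0533%).

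The remaining pair of the primary granule list did not differ by size. Serpinb1a, an inhibitor of these proteases, had levels of 9.61, 10.65 and 11.56 in Myelo-2 cells, against 7.26, 11.32 and 11.85 in Gran-2 cells, a difference of -0.28. Fcnb, the lectin ficolin B and one of the 5 genes given as markers of these states, had levels of 2.98, 10.54 and 12.97 in Myelo-2 cells, against 0, 10.59 and 13.07 in Gran-2 cells, a difference of -0.20. Of the 5 markers, Ngp, Ltf and Camp were higher in Myelo-2 and Mpo in Gran-2, while Fcnb did not separate the states.

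Read within single cells, the granule programmes crossed over. Secondary granule transcripts took a larger share of TPM than primary granule transcripts in 11 of 11 Myelo-2 cells (71.5% to 100%), against 2 of 13 Gran-2 cells (15.4%, 1.9% to 45.4%). Primary granule transcripts took 0.543% at the median in Myelo-2 cells (0.346% to 5.62%), against 6.29% in Gran-2 cells (4.27% to 9.11%). Ngp lay above Mpo in 11 of 11 Myelo-2 and 1 of 13 Gran-2 cells, and Ltf above Mpo in 10 of 11 and 0 of 13. Cells with both Ngp and Mpo at 10 or more were 3 of 11 in Myelo-2 (27.3%, 6.0% to 61%) and 9 of 13 in Gran-2 (69.2%, 38.6% to 90.9%). Ngp lay above Camp in 10 of 11 Myelo-2 cells but in 4 of 13 Gran-2 cells, where Camp was more often the higher of the pair.

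**Figure D2:**
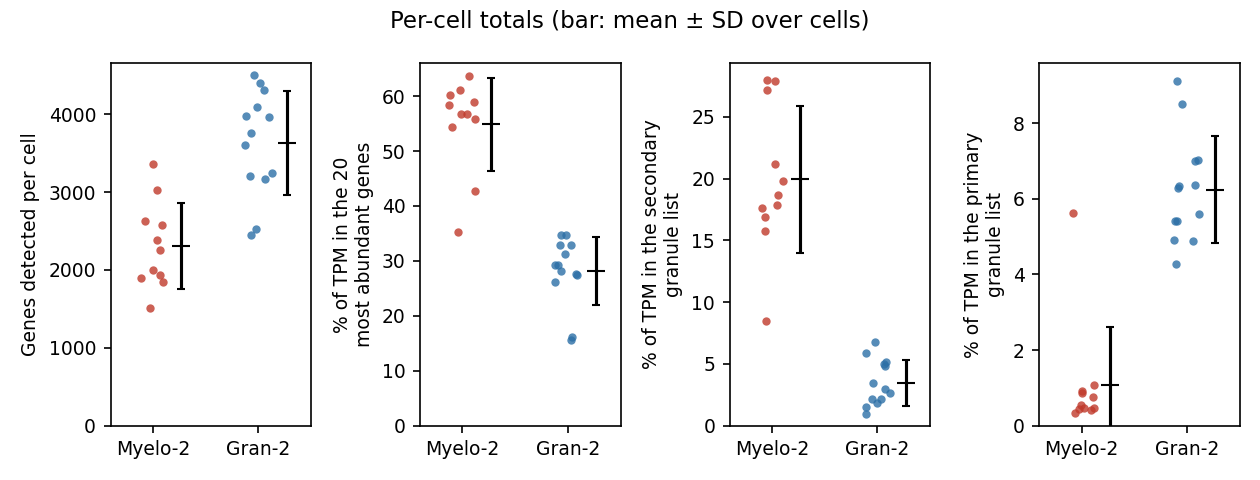
Detected genes per cell and the percent of each cell's TPM in its 20 most abundant genes, in the secondary granule list and in the primary granule list, for 11 Myelo-2 cells (red) and 13 Gran-2 cells (blue), with bars for the mean ± SD over cells. Myelo-2 cells have fewer genes and more TPM in few genes; 1 Myelo-2 cell, at 5.62%, sits among Gran-2 cells for primary granule transcripts.

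Individual cells departed from their state. The Myelo-2 cell with the lowest Ltf, 5.36, also had the highest Mpo of its state, 13.34, and an Elane level of 14.84, yet Ctsg was at 0 and Ngp at 13.66. A different Myelo-2 cell held Ctsg at 11.09 with Ltf at 13.94. Among Gran-2 cells, 2 had the monocyte gene Ly86 detected, at 4.30 and 8.46, together with Irf8 at 3.11 and 8.23 and 5 and 6 of 12 monocyte markers. Monocyte markers were not particular to them: their sums were 204 and 2234 TPM, against a Gran-2 median of 476, and 1 Myelo-2 cell also held 5 of 12, with Irf8 at 6.07. The 2 Gran-2 cells with Ly86 had the highest Ltf of their state, 8.68 and 9.82, and the second also had the highest Ngp, 15.05. Without these 3 cells, chosen after their values were seen, 128 genes were at least 2 higher and 1565 at least 2 lower, and the median over all genes was -1.14. The small groups of matched gene number include the Gran-2 cell with Ly86 at 4.30 and the Myelo-2 cell with Ctsg at 11.09.

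S100a8 and S100a9, which form the calprotectin dimer, were abundant in both states and higher in Myelo-2. S100a8 had levels of 16.05, 16.99 and 17.50 in Myelo-2 cells, against 12.77, 16.05 and 16.91 in Gran-2 cells, a difference of 1.37, and S100a9 differed by 1.55. Together they took 24.2% of TPM at the median in Myelo-2 cells (12.4% to 31.5%), against 11.5% in Gran-2 cells (1.02% to 17.9%). Other members of the family differed in both directions: S100a6 by 3.58, detected in 5 of 11 Myelo-2 and 0 of 13 Gran-2 cells, and S100a1 by -4.73, detected in 6 of 11 and 12 of 13. Over 7 kept members the median was 0.56, and 2.02 in the cells of matched gene number. The 6 genes of the NADPH oxidase, which makes superoxide in the phagosome, all stayed within 2, with a median of 0.63, and 1.51 in the matched cells. Its catalytic subunit Cybb had levels of 7.89, 9.99 and 11.46 in Myelo-2 cells, against 2.30, 8.59 and 10.25 in Gran-2 cells, a difference of 1.90. Its membrane partner Cyba differed by 0.65 and the cytosolic subunit Ncf4 by 0.80.

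Transcription factors of granulocytes were split. Gfi1, which carries the mutation and encodes a zinc finger repressor, had levels of 0, 6.09 and 9.41 in Myelo-2 cells, against 0, 8.39 and 10.37 in Gran-2 cells, a difference of -2.53. It was detected in 8 of 11 Myelo-2 cells (72.7%, 39% to 94.0%), against 12 of 13 Gran-2 cells (92.3%, 64% to 99.8%). Whether its reads come from the mutated allele cannot be told from gene-level values. Cebpe, which encodes C/EBP epsilon, had levels of 0, 5.47 and 8.10 in Myelo-2 cells, against 0, 4.26 and 7.21 in Gran-2 cells, a difference of 1.02 that was 3.55 in the cells of matched gene number. Factors of proliferating progenitors were lower: Myb had levels of 0, 0.92 and 6.87 in Myelo-2 cells, against 1.24, 6.74 and 10.75 in Gran-2 cells, a difference of -4.07, and Myc, detected in 1 of 11 and 9 of 13 cells, differed by -3.59. Stat3, which transmits G-CSF signals, differed by -2.96. Of 11 kept factors, 4 were at least 2 lower, beside 25.2% of all genes, and none at least 2 higher. Their median was -1.25, and 1.03 in the cells of matched gene number, so the direction of that list depends on the cells used.

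Irf8, which directs monocyte and dendritic cell development, was mostly absent. It was detected in 4 of 11 Myelo-2 cells (36.4%, 10.9% to 69.2%), against 3 of 13 Gran-2 cells (23.1%, 5.0% to 53.8%), with a highest level of 7.59 in Myelo-2 and 8.23 in Gran-2. All 6 Mono cells of the run held it, at 6.16 to 9.42. Gfi1 and Irf8 were detected together in 3 of 11 Myelo-2 cells (27.3%, 6.0% to 61%), against 3 of 13 Gran-2 cells (23.1%, 5.0% to 53.8%). Of 9 monocyte and dendritic factors, 4 were kept and all stayed within 2, with a median of -0.02, and 1.87 in the matched cells, and with Id2 at -0.22, Klf4 at 0.17 and Tcf4 at -1.61. Of 13 genes described in the mouse as repressed by Gfi1, 7 were kept, with a median of 0.43, and 1.64 in the matched cells; Bax, a promoter of apoptosis, differed by -2.01 and was at 0 in all Myelo-2 cells, Hoxa9 by -1.90, likewise at 0 in all Myelo-2 cells, and Egr1 by 0.98.

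Surface receptors and adhesion genes differed in both directions. Itgam, the gene of the CD11b used in the sort, had levels of 3.90, 7.42 and 9.54 in Myelo-2 cells, against 0, 2.17 and 8.56 in Gran-2 cells, a difference of 3.40. It was detected in 11 of 11 Myelo-2 cells (71.5% to 100%), against 8 of 13 Gran-2 cells (61.5%, 31.6% to 86.1%). Selplg, the P-selectin ligand PSGL-1, had levels of 0, 0.28 and 7.34 in Myelo-2 cells, against 0.67, 6.45 and 8.29 in Gran-2 cells, a difference of -4.16. The adhesion molecule Vcam1 differed by -4.15, detected in 3 of 11 and 10 of 13 cells. The adhesion list as a whole had 2 members at least 2 higher and 3 at least 2 lower of 10, with a median of 0.18, and 1.32 in the matched cells. Among 13 kept cytokine and chemokine receptors, 2 were at least 2 higher and 4 at least 2 lower, with a median of -1.66 that was -0.16 in the cells of matched gene number. Of all 5633 genes, 1.97% were at least 2 higher and 25.2% at least 2 lower. The share of lower members in both lists was thus near that of all genes. Ifngr1, the ligand-binding chain of the interferon gamma receptor, had levels of 0, 2.47 and 9.48 in Myelo-2 cells, against 5.07, 9.20 and 10.60 in Gran-2 cells, a difference of -5.49. Ccr1, a chemokine receptor, differed by 2.80 and Il1r2, the decoy receptor for interleukin 1, by 2.33, the second with no detected Gran-2 cell.

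Transcripts of Kit and Cd34, the progenitor antigens, were low in both states. The marrow had been enriched on CD117, the Kit protein, and no protein level was measured here. Kit was detected in 2 of 11 Myelo-2 and 4 of 13 Gran-2 cells and differed by -0.09, and by 0.96 in the matched cells. Cd34 was detected in 0 of 11 Myelo-2 and 4 of 13 Gran-2 cells (30.8%, 9.1% to 61.4%). It differed by -1.92, and by 0.13 in the matched cells. Over the 4 kept members of the stem and multilineage list the median was -0.996, and 0.944 in the matched cells.

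Most S phase genes were lower in Myelo-2. Of 19 kept S phase genes, 14 were at least 2 lower and none higher, with a median of -3.02; a cell had a median of 7 of 20 detected in Myelo-2 (1 to 14), against 15 in Gran-2 (7 to 18). Mcm3, a subunit of the replicative helicase, had levels of 0, 0.20 and 8.75 in Myelo-2 cells, against 0, 7.36 and 8.93 in Gran-2 cells, a difference of -4.67. The subunits Mcm7 and Mcm6 differed by -3.86 and -3.64, and Uhrf1, which keeps DNA methylation through replication, by -3.63. Gmnn, geminin, an inhibitor of replication licensing, differed by -5.40, detected in 3 of 11 and 12 of 13 cells. In TPM the list took 0.098% at the median in Myelo-2 cells (0.0007% to 0.842%), against 0.356% in Gran-2 cells (0.117% to 0.823%). The states thus overlapped, and the highest Myelo-2 cell lay above every Gran-2 cell. In the cells of matched gene number the S phase median was -2.52.

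Of 20 G2 and M phase genes, 3 were at least 2 lower and none at least 2 higher, with a median of -0.85, above the all-gene median of -1.15. These 3 were Kif11, a spindle motor, at -2.61, Ccnb1, cyclin B1, at -2.35, and Birc5, survivin, at -2.25. A cell had a median of 11 of 20 detected in Myelo-2 (0 to 19), against 14 in Gran-2 (4 to 19), so single cells of either state held nearly the whole list. In the cells of matched gene number the median of the list was 2.35, with Kif11 at 1.21, Ccnb1 at 3.49 and Birc5 at 1.2, so no direction can be given for it. Among G1 genes, the kinases Cdk6 and Cdk4 differed by -2.75 and -2.66, and of 12 kept members 2 were at least 2 lower, with a median of -0.87, and -0.47 in the matched cells.

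Genes of protein synthesis were lower in Myelo-2 beyond the all-gene shift. Of 22 ribosomal protein genes, 15 were at least 2 lower and none higher, with a median of -2.59; pseudogenes close to these genes may share their reads. Rpl18, of the large subunit, had levels of 0, 4.54 and 10.06 in Myelo-2 cells, against 5.55, 9.80 and 11.24 in Gran-2 cells, a difference of -4.70. In TPM the list took 0.799% at the median in Myelo-2 cells (0.271% to 2.82%), against 3.18% in Gran-2 cells (1.98% to 3.90%). Of 14 kept ribosome biogenesis genes, 10 were at least 2 lower, with a median of -3.68. The box C/D small nucleolar ribonucleoprotein components Nop56 and Nop58 differed by -4.96 and -4.82, which were -1.38 and -2.24 with matched gene number, and Nolc1, a nucleolar phosphoprotein, by -4.26. Pa2g4, a growth-linked protein that binds ribosomes, averaged 0.64 ± 1.35 in Myelo-2 (SD, n = 11 cells) and 7.49 ± 2.51 in Gran-2 (SD, n = 13 cells), a difference of -6.85. With matched gene number the list medians were -1.86 for ribosomal proteins and -0.95 for biogenesis.

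Over all 24 cells, list medians of secretory, metabolic and nuclear envelope genes stood nearer to the all-gene median than those of protein synthesis genes. That order did not hold throughout in the matched cells, where the endoplasmic reticulum median was -1.01 and that of ribosome biogenesis -0.95. Counts at least 2 lower are read beside 25.2% of all genes. Of 19 endoplasmic reticulum genes, 9 were at least 2 lower, with a median of -1.89 that was -1.01 with matched gene number; the lectin chaperone Canx, calnexin, had levels of 0.14, 6.04 and 9.01 in Myelo-2 cells, against 8.51, 9.66 and 11.47 in Gran-2 cells, a difference of -4.65. Rpn2, a subunit of the complex that attaches N-glycans, differed by -5.98 (-2.23 with matched gene number), and Ssr4, a translocon-associated protein, by -5.71. Phgdh, the first enzyme of serine synthesis, was detected in 0 of 11 Myelo-2 and 11 of 13 Gran-2 cells (84.6%, 54.6% to 98.1%), a difference of -6.01. Of 18 respiratory chain genes, 7 were at least 2 lower, with a median of -1.79 that was -0.18 with matched gene number, where Atp5b was at 1.16 and Atp5o at 2.71. Sdhd, a subunit of succinate dehydrogenase, differed by -4.03, and Suclg1, of the citric acid cycle, by -5.92. Of 11 kept glycolysis genes, 1 was at least 2 lower, Tpi1 at -3.70, with a median of -1.01, slightly above that of all genes, that was -0.20 with matched gene number. Cst7, cystatin F, an inhibitor of lysosomal cysteine proteases, differed by -6.08, and Nkg7, a granule membrane protein better known from killer lymphocytes, by -5.51. Nuclear envelope genes, of interest because the neutrophil nucleus becomes lobed, had 2 of 6 kept members at least 2 lower, Sun2 at -2.25 and Lmnb1, lamin B1, at -2.06; the list's median was -1.34 and, with matched gene number, -0.21.

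**Figure D3:**
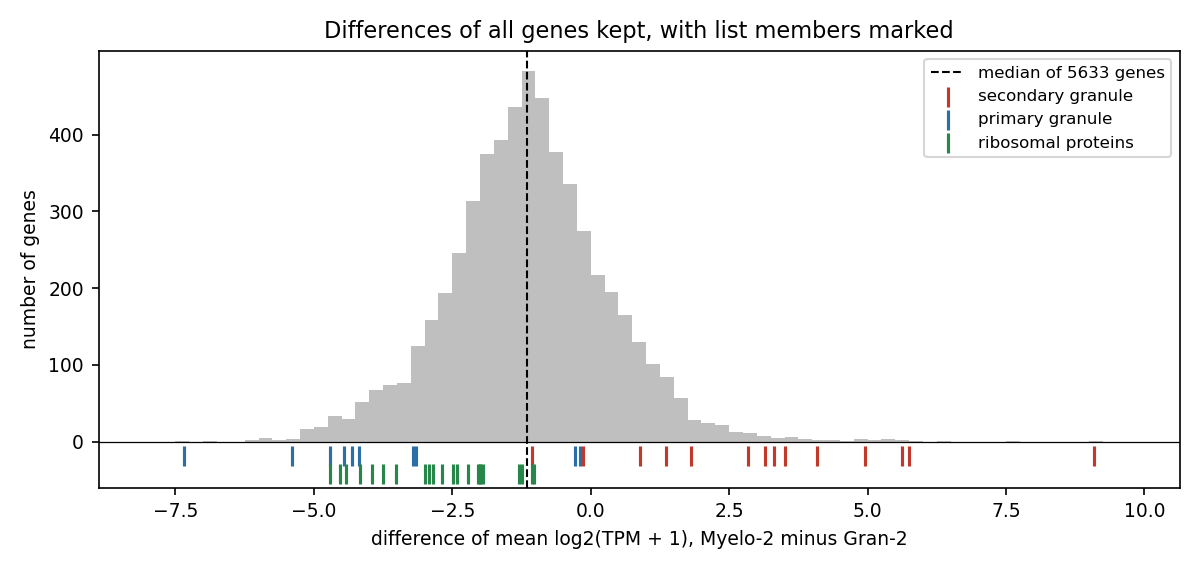
Number of genes (vertical axis) by difference of mean log2(TPM + 1), Myelo-2 minus Gran-2 (horizontal axis), for the 5633 kept genes, with ticks under the histogram for the members of 3 lists and a dashed line at the median of all genes, -1.15. Secondary granule members reach to 9.09 on the right, and all primary granule and ribosomal protein members lie left of 0, with Ctsg at -7.35 farthest out.

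Most actin and motility genes lay on the Myelo-2 side. Of 18 kept, 4 were at least 2 higher in Myelo-2 and none at least 2 lower, with a median of 0.60, and 17 lay above the all-gene median. In the matched cells the median was 1.36. Capg, an actin filament capping protein, differed by 3.86, Lsp1, a leukocyte actin-binding protein, by 3.8, Gsn, gelsolin, by 2.53 and Actn1, alpha-actinin, by 2.05. Lsp1 had levels of 0.77, 8.92 and 11.33 in Myelo-2 cells, against 0, 5.64 and 8.61 in Gran-2 cells.

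Immediate early and heat shock genes differed in both directions. The list had 2 of 17 kept members at least 2 higher and 3 at least 2 lower, with a median of 0.98, and 3.01 in the matched cells. The 3 lower ones were the heat shock genes Hspa8 at -3.98, Hspa1a at -3.61 and Hspa1b at -2.96, the last 2 being near-identical and thus uncertain individually. Btg2, an antiproliferative gene induced early on stimulation, had levels of 10.32, 10.76 and 12.35 in Myelo-2 cells, against 1.11, 9.60 and 10.99 in Gran-2 cells, a difference of 3.17 (5.95 in the matched cells). The related Btg1 differed by 4.05. In the 7 Myelo-2 cells sorted as GMP, which carry other run names, the medians were 4.22 for Btg2 and 0.51 for Btg1, so these genes were not high in every cell of the state name.

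**Figure D4:**
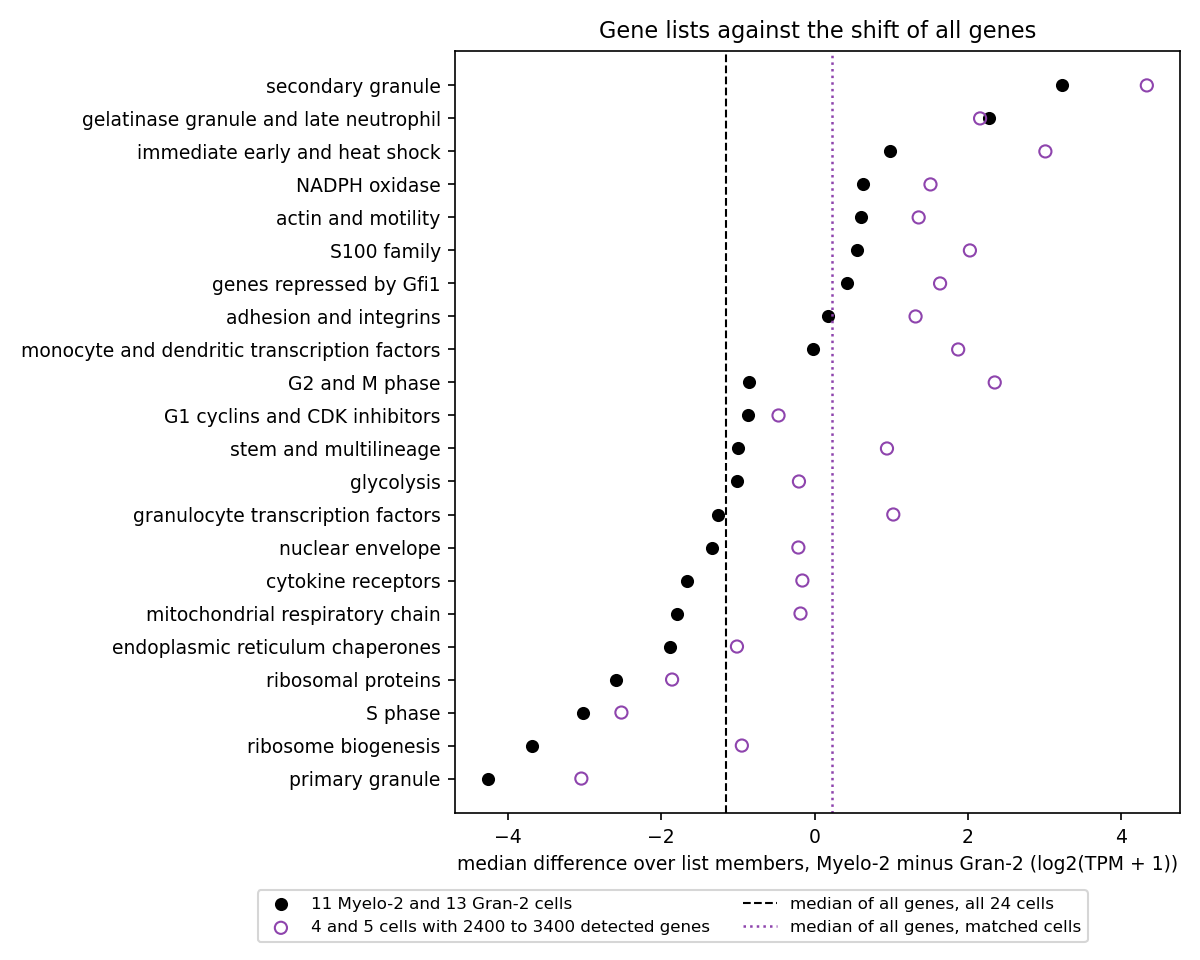
Median difference in log2(TPM + 1), Myelo-2 minus Gran-2, over the kept members of each gene list, for all 24 cells and for the 9 cells of matched gene number, with a line for the median of all genes in each set of cells. Secondary granule and late neutrophil lists lie to the right and primary granule, S phase and ribosomal lists to the left in both sets of cells. The lists of G2 and M phase, granulocyte factors, monocyte and dendritic factors, and stem and multilineage genes change sign.

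Most listed markers of other cell types were in no cell, but some of the rest were widely detected. Defining markers were detected in none of the 24 cells for 7 of 8 dendritic, 9 of 10 erythroid, 5 of 6 eosinophil, 5 of 6 megakaryocyte, 5 of 7 B lineage, 6 of 7 T and NK and 6 of 9 macrophage genes. The T and NK exception was Nkg7, detected in 9 of 11 Myelo-2 and 13 of 13 Gran-2 cells. Of 12 monocyte markers, 1 was in no cell and 4 were kept, all within 2, with a median of -0.16, and 1.18 in the matched cells, and the list's summed TPM was 0.21, 308 and 2054 in Myelo-2 cells, against 5.45, 476 and 2234 in Gran-2 cells. The macrophage list summed to 0.68, 132 and 964 TPM in Myelo-2 cells, against 0, 728 and 1085 in Gran-2 cells, with Vcam1 and Slc40a1 as the kept members. Vcam1 was detected in 3 of 11 Myelo-2 and 10 of 13 Gran-2 cells, and Slc40a1 in 8 of 11 and 11 of 13. The basophil and mast list summed to 0.23, 306 and 1524 in Myelo-2 cells, against 1.01, 516 and 1364 in Gran-2 cells. Of its 8 markers 4 were in no cell, and Mcpt8 and Hdc were the kept members. Mcpt8 was detected in 1 of 11 Myelo-2 and 5 of 13 Gran-2 cells, a difference of -1.40 that was 0.20 in the matched cells. Its highest level, 10.21, was in the Gran-2 cell with Fcnb at 0 and 1.02% of TPM in S100a8 and S100a9. Hdc was detected in 10 of 11 Myelo-2 and 13 of 13 Gran-2 cells, a difference of -0.06. The part of these genes in the differences above was not tested.

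Set among the other granulocyte states of the same run, Myelo-2 and Gran-2 lay on either side of the granule crossover. The authors' numbering runs Gran-1 (3 cells), Gran-2 (13), Myelo-1 (5), Myelo-2 (11) and Myelo-4 (7), with Myelo-3 left out for its single cell. Median Ltf was 7.63, 2.73, 5.90, 13.64 and 14.46 in that order, so Gran-2 had the lowest level, and its distance to Gran-1 and Myelo-1 lay within the spread of their few cells. Median Mpo was 12.87, 14.18, 12.37, 8.80 and 4.73, with the highest level in Gran-2. Median Ngp was 12.75, 10.80, 13.19, 16.52 and 17.001, and median Camp was 9.64, 11.63, 14.94, 15.53 and 15.46. Camp varied more among the 5 Myelo-1 cells, with a mean of 13.19 and a lowest level of 7.55, than in Myelo-2, with a mean of 15.26 and a lowest level of 14.60. Median Itgam was 0.10, 2.17, 3.21, 7.42 and 8.25. Median Fcnb was 5.78, 10.59, 11.43, 10.54 and 7.31. Median Gfi1 was 1.79, 8.39, 3.57, 6.09 and 0, and Gfi1 was detected in 2 of 7 Myelo-4 cells.

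**Figure D5:**
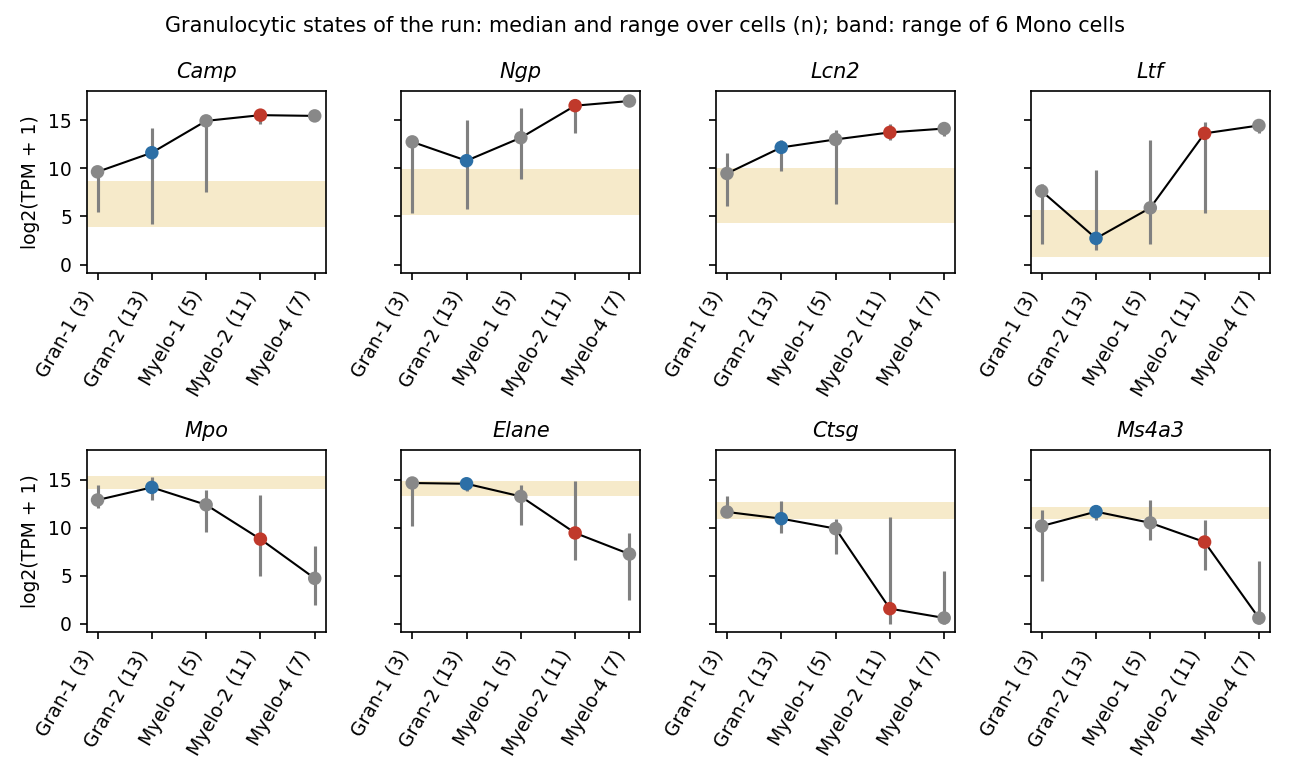
Median (points) and range (bars) over cells of the level in log2(TPM + 1) of 8 granule genes, by the authors' state name from Gran-1 to Myelo-4 in 1 run, with the number of cells in brackets, Gran-2 in blue and Myelo-2 in red; the band is the range of 6 Mono cells. Mpo is highest in Gran-2 and Ltf lowest there, and in Myelo-2 the median of Ltf, 13.64, lies above that of Mpo, 8.80.

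The state names also occur among cells sorted as GMP, with 7 Myelo-2 and 2 Gran-2 cells under other run names. Those 7 Myelo-2 cells had medians of 13.64 for Ltf, 16.70 for Ngp, 15.63 for Camp and 8.30 for Mpo, next to 13.64, 16.52, 15.53 and 8.80 in the CD11b+ GMP-P Myelo-2 cells. Sort gate and run name cannot be told apart between these sets, and the state names were given to these cells too, so the likeness is no independent check.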

How the data were processed

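The authors deposited the single-cell RNA sequencing as a table of log2 expression, 23946 genes by 121 cells. Undoing log2(TPM + 1) gave sums of 999580 TPM at the lowest among the 24 cells, close to what TPM must sum to, and 84.3% of their values were 0. The submitters' processing notes name Bowtie2, RSEM and mm9, without versions or settings. Each cell's state name, 1 of 12, comes from another deposited table of the authors, and the sources used here do not say how names were assigned. Each column was mapped to a cell.

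Kept genes were detected (1 TPM, tolerance 0.005) in 25% or more of either state's cells. Differences of mean log2(TPM + 1), Myelo-2 minus Gran-2, were computed with Python 3.11.15, numpy 2.4.6, pandas 2.3.3 and scipy 1.17.1, with matplotlib 3.10.9 for figures. The code was tested on simulated data in which only genes of higher level were shifted. Their spread was capped and dropout was not modelled, so the test covers the arithmetic and not the behaviour in sparse cells. Doublets were not called. No cell was removed, as none had under 1500 detected genes.

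The states and the 31 gene lists were chosen with earlier results of these data known. Named genes are the label's markers with Gfi1, Irf8, Cebpe, Itgam, Kit and Cd34, all primary granule, secondary granule and NADPH oxidase members, up to 4 members with the largest difference from every other list, the 20 largest differences each way among genes found in 75% or more of the higher state's cells, and genes whose states did not overlap. Not each of these is reported. Csf3r, Ly6g, Mmp9 and Ly86 are outside the rule and were chosen after seeing their values. Promoter windows come from the RefSeq table on GRCm38.p6, matched by symbol for 4311 of the 5633 kept genes. Alternatives covered the pseudocount, the filter, scaling, the summary and the choice of cells.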

Additional observations from a re-analysis of the deposited data

How the results depend on the processing

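No paired analysis was possible because the cells carry no pairing and no result comes from a test. Leaving out a replicate was not possible with 1 sample a state. Against 111 genes at least 2 higher and 1422 at least 2 lower in Myelo-2, a pseudocount of 0.1 gave 220 and 2561 and one of 10 gave 42 and 373. Rescaling without the 20 most abundant genes gave 185 higher, the ratio of mean TPM 357, and cells of matched gene number, chosen after the data were seen, 962. The secondary granule median of 3.23 was 1.92 with a pseudocount of 10, 1.72 from the ratio of mean TPM and 4.33 in matched cells. The primary granule median of -4.25 was -2.79 from the ratio of mean TPM, -3.25 from the difference of medians and -3.04 in matched cells. In matched cells 7 named genes changed sign: Orm1 to -0.17, Cd47 to 0.28, Kif11 to 1.21, Ccnb1 to 3.49, Birc5 to 1.2, Atp5b to 1.16 and Atp5o to 2.71; the cause was not tested. Of the gene values over the settings that can change a single gene's difference, 1206 moved by less than 1 SD over cells, 56 by more without a called change of sign, and 7 reversed; the filter settings leave such a difference as it is. Leaving out cells under 1500 genes removed none. Depth per cell is unknown, so a 0 can be a missed transcript, and both states rest on cells of 1 run.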
